A study of Mus musculus with 18 samples.

Results

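The genes described here form the calcium cycle of striated muscle, which links excitation of the membrane to contraction. They are Cacng1, Ryr1, Ryr2, Atp2a1, Atp2a2, Casq1, Casq2, Pvalb and Pln. A probe set was taken where its only gene symbol in the platform annotation was one of these 9 genes, which gave 10 probe sets for 8 genes, out of 8251 genes with such a probe set in the whole table. Pln, which encodes phospholamban, the inhibitor of the cardiac and slow muscle calcium pump, had none and is not described further. Atp2a1 and Pvalb had 2 probe sets each and the other 6 genes had 1 each.

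Total RNA of mice aged 8 weeks came from extraocular muscle, which turns the eyeball, and from heart and leg muscle. It was hybridised to Affymetrix mouse expression arrays. The 6 groups were dko extraocular muscle, mdx extraocular muscle, dko heart, mdx heart, dko leg and mdx leg, each with 3 arrays. All of them come from dystrophic mice: mdx mice lack dystrophin throughout the body and are marked as the control in the labels, and dko, which the labels do not spell out, usually stands for mice that lack dystrophin and its relative utrophin. No genotype with dystrophin was analysed here, so every difference below is one between 2 dystrophic genotypes or between tissues of such mice. Nothing in the labels says that replicates are separate animals, or which leg muscle was used. The spread behind each p-value may therefore be technical only.

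In striated muscle the action potential runs down the T-tubules and is sensed by the L-type calcium channel. In skeletal fibres this channel opens the ryanodine receptor of the sarcoplasmic reticulum through direct contact, whereas in the heart calcium entering through the channel opens it. Calsequestrin holds calcium inside the reticulum, the SERCA pumps return calcium to it, and parvalbumin in fast fibres binds calcium in the cytosol and speeds relaxation. Most steps use one gene in fast skeletal fibres and a relative of it in heart, with slow fibres sharing several of the cardiac forms.

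Promoter sequences are shown for Ryr1 and for Pvalb, which were high in both skeletal tissues and near background in heart (Pvalb on 1 of its 2 probe sets, 96720_f_at). They are also shown for Ryr2, which was above background in heart only, and for Casq2. Casq2 was above background in all tissues with higher means in heart, and its heart minus leg difference was called with the block alone. The sequences set these patterns beside the DNA. Each runs 5′ to 3′ on the gene's own strand over 300 bases, from 250 before to 50 after the start, and is taken from RefSeq on GRCm38.p6. Capitals mark matches on either strand to the E-box CANNTG, the motif of MyoD-type factors, and to the MEF2 motif. Ryr1 spans chr7:29125102-29125401, Pvalb chr15:78206351-78206650 (the start farther upstream of its 2 starts) and Ryr2 chr13:12106896-12107195, all on the minus strand, and Casq2 spans chr3:102086165-102086464 on the plus strand.
Ryr1: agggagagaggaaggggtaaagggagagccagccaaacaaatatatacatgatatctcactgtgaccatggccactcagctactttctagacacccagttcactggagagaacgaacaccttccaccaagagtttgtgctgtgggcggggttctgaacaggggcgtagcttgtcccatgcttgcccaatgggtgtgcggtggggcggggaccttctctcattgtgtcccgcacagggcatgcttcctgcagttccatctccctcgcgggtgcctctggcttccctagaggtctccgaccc
Pvalb: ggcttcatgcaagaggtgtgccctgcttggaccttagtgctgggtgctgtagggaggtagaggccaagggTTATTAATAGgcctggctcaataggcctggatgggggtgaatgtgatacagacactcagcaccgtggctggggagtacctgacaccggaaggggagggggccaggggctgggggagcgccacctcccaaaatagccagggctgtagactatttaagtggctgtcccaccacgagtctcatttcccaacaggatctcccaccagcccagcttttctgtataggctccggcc
Ryr2: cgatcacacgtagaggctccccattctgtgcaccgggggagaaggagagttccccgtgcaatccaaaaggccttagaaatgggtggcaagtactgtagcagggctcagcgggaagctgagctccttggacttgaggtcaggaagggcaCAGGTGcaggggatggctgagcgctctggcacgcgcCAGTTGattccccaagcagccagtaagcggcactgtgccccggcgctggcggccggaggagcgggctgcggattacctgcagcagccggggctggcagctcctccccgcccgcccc
Casq2: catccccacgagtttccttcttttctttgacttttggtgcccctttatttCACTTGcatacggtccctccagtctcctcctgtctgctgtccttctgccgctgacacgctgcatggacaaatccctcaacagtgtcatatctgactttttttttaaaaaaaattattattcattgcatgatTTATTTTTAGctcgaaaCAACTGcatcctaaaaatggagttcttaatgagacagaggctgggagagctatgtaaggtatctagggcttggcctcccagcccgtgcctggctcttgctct

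The E-box was found in 72.3% of all 32851 promoters of this length and the MEF2 motif in 3.19% of them. The Ryr1 window held 0 E-boxes and 0 MEF2 matches, and the Pvalb window held 0 E-boxes and 1 MEF2 match, which starts 180 bases before the gene's start. The Ryr2 window held 2 E-boxes and 0 MEF2 matches, while Casq2 had 2 E-boxes and 1 MEF2 match, the last 69 bases before the start. A match is only a run of letters, and its absence covers these 300 bases alone. The other Pvalb start, chr15:78204188-78204487, had 2 E-boxes and 0 MEF2 matches, and the fast fibre members Casq1 and Atp2a1 had 2 and 1 E-boxes, so E-box counts did not separate the skeletal from the cardiac members. RefSeq promoters were matched for 7 of the 9 genes.

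Values are intensities on a linear scale, and differences are log2 differences taken after 166.7 was added to each intensity, so that the change of a dim probe set is understated. A difference was called where limma's p, adjusted over all 8888 probe sets tested in that comparison, was under 0.05. All 10 member probe sets passed the filter on dim values, which asked for an intensity above the array's 40th percentile (319.2 to 420.2) in at least 3 of the 18 arrays. Some did so with a tissue at the floor: Ryr2 was at or below that percentile on every extraocular and leg array, and Ryr1 and Pvalb 96720_f_at were so on every heart array. These are written as near background below, and their folds depend on the added constant. Cacng1 was above that percentile on 1 heart array, in dko, and Atp2a1 162223_f_at on 1, in mdx. All of these probe sets passed the filter only through tissue where they were high. Their p-values between heart and skeletal tissue therefore describe that split and are no separate support for it. Levels are compared between groups for 1 probe set at a time, never between probe sets.

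The arrays numbered 3 had lower medians (525.6 to 573.75) than those numbered 1 or 2 (612.6 to 671.8) and, within each group, higher maxima (47024 to 74434, against 33355 to 47589). Arrays with the same number deviated alike, so results are also given with the replicate number as a block where this changes a call. Utrn, the gene expected to separate the genotypes, read 219.9 to 414.3 in dko and 437.6 to 1086.5 in mdx over the 3 tissues on probe set 92507_at, without overlap in any of them. On its other probe set, 92508_s_at, the genotypes did not overlap in extraocular muscle and heart but did in leg, at 233 to 645.7 in dko and 437.8 to 738.2 in mdx. Tissue labels were checked on marker lists. The summed level of 10 cardiac markers was 182929 to 370583 in dko heart and 158278 to 430640 in mdx heart, against at most 48835 in any skeletal group, and that of 9 fast fibre markers was at most 9547 in heart, against 51839 or more in extraocular and leg muscle. Myh13, the extraocular myosin heavy chain, had no probe set with a single symbol, and that label could not be checked on it.

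**Figure D1:**
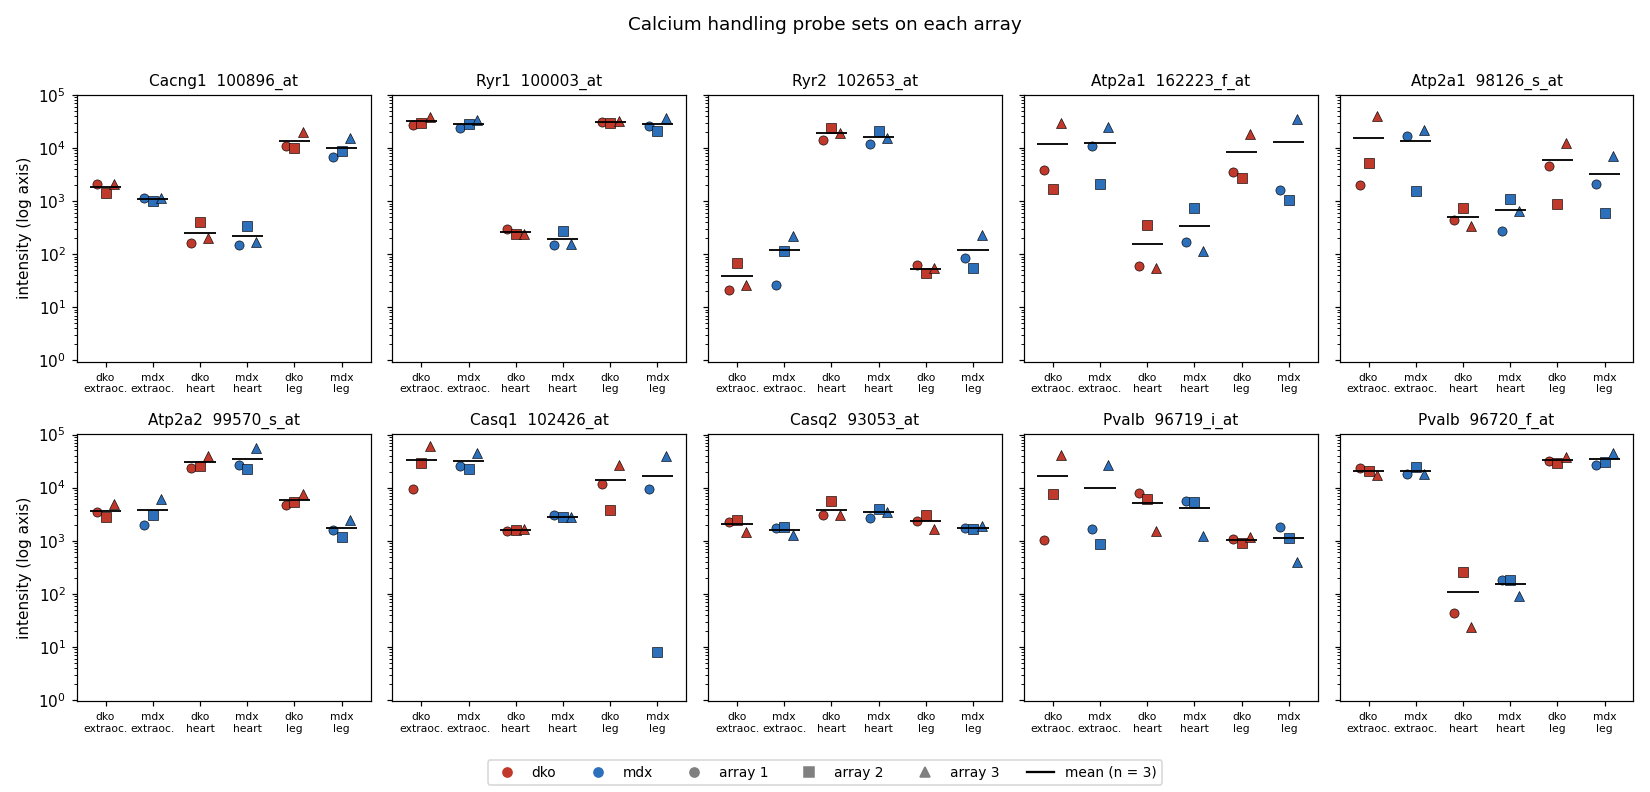
Intensity (log axis) of the 10 probe sets on each of the 18 arrays, by tissue and genotype, with dko in red, mdx in blue, marker shapes for array numbers 1 to 3 and a bar at the mean of 3 arrays. Ryr1 and Pvalb 96720_f_at lie near the floor in heart and Ryr2 lies there in both skeletal tissues, while Casq1 has a single mdx leg array at 7.9.

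Cacng1 (probe set 100896_at) encodes the gamma subunit of the skeletal L-type calcium channel, the voltage sensor at the T-tubule. It read 2057, 1412 and 2068 on arrays 1, 2 and 3 of dko extraocular muscle and 1146, 995.5 and 1146 on those of mdx. In heart it was 159.8, 407.7 and 197.9 in dko and 149.5, 345.1 and 170.6 in mdx. In leg it was 11016, 9799 and 20044 in dko and 6718, 8717 and 15129 in mdx. The 3 tissues formed separate bands in the order leg, extraocular, heart, in both genotypes. Cacng1 was the only member called between extraocular and leg muscle in both genotypes: extraocular minus leg was -2.72 ± 0.33 (SE) in dko (adjusted p 0.00025) and -2.96 ± 0.33 in mdx (adjusted p 7.8e-05). Heart lay lower again, with heart minus leg at -5.0 in dko and -4.69 in mdx. Most heart values were below the 40th percentile of their array, so those 2 sizes rest on the added constant.

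Between genotypes, all 3 dko extraocular arrays lay above all 3 mdx arrays for Cacng1, at 1846 ± 376 and 1096 ± 86.9 (SD, n = 3 each). The log2 difference was 0.66, with a 95% interval from -0.047 to 1.36, and was not called (adjusted p 1.00, and 0.185 with the block). Groups that did not overlap, in either direction, were seen in 5.65% of all probe sets tested. In heart and leg the dko array was the higher of its pair at every number, while the groups overlapped, and the differences were 0.11 and 0.42. Averaged over the tissues the difference was 0.40, with an adjusted p of 0.0525 with the block, and 0 members were called in that average, where 0.09% of all probe sets were called without the block and 0.788% with it (limma, 1 member at an unadjusted p under 0.05).

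Ryr1 (100003_at) encodes the calcium release channel of skeletal muscle. It read 27128, 29908 and 38856 in dko and 24130.3, 28499.9 and 33672 in mdx extraocular muscle. The heart arrays gave 296.5, 237.1 and 236.5 in dko and 150.9, 273.4 and 156.5 in mdx, all near background. The leg arrays gave 30757, 29215 and 32606 in dko and 26374, 21238.5 and 37379 in mdx. Both skeletal tissues were high and overlapped, and heart was separate from them. Heart minus leg was -6.20 in dko and -6.28 in mdx, with an SE of 0.23 (adjusted p 1.3e-10 and 1.0e-10). Extraocular minus leg was 0.035 in dko and 0.048 in mdx, and the 95% interval of the mdx value ran from -0.43 to 0.53. Ryr1 also had the narrowest interval of the members for genotype: dko minus mdx was 0.15 in extraocular muscle (-0.33 to 0.63), 0.25 in heart (-0.23 to 0.73) and 0.16 in leg (-0.32 to 0.64).

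Ryr2 (102653_at) encodes the cardiac release channel. It read 14148.5, 24166 and 18995 in dko heart and 11668, 20962 and 15514.5 in mdx heart. Extraocular values were 21.5, 68.7 and 26.9 in dko and 25.9, 116.2 and 221.2 in mdx, and leg values were 62.2, 44.6 and 54.4 in dko and 85.5, 54.5 and 227.8 in mdx. Only heart rose above background. Heart minus leg was 6.42 ± 0.30 (SE, adjusted p 8.5e-10) in dko and 5.81 ± 0.30 (adjusted p 2.7e-09) in mdx. In heart the dko array exceeded the mdx array at all 3 numbers and in the skeletal tissues it was below it at all 3, but the skeletal values were near background and no difference between these responses was called. The difference of the heart response from the leg response was 0.60 (adjusted p 0.47 with the block), and dko minus mdx in heart itself was 0.26 with an interval from -0.37 to 0.88. Across the 18 arrays Ryr1 and Ryr2 had a Pearson correlation of -0.99, which mostly restates the split between heart and skeletal tissue.

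Atp2a1 encodes SERCA1, the calcium pump of fast fibres. Its probe sets have the suffixes _f_at and _s_at, which mark probes shared with related sequences. The same holds for 99570_s_at, the only probe set of Atp2a2, and for 96720_f_at of Pvalb. Both Atp2a1 probe sets varied widely within groups. Probe set 162223_f_at read 3888, 1672 and 29805 in dko extraocular muscle, 11110.1, 2095 and 24516 in mdx extraocular muscle, 3535, 2786.5 and 18717 in dko leg and 1607, 1039 and 35567 in mdx leg. In heart it read 60.6, 348.1 and 54.9 in dko and 167.7, 748.1 and 117.1 in mdx. Array 3 was the highest of its group in all 4 skeletal groups, 26.9 times the mean of arrays 1 and 2 in mdx leg and 3.71 times it in mdx extraocular muscle. All dko heart values, and the mdx ones on arrays 1 and 3, were at or below the 40th percentile of their array. The sizes of the differences from heart therefore rest on the added constant. No heart array reached the lowest skeletal array. Even so, heart minus leg was called in dko only, at -4.32 ± 1.25 (SE, adjusted p 0.0354, and 0.0064 with the block), while mdx had -3.26 (adjusted p 0.132, and 0.0321 with the block). Leaving out any single dko heart or leg array ended the dko call, with values from -3.48 to -4.82 and adjusted p from 0.0518 to 0.156.

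Probe set 98126_s_at of the same gene read 2012, 5197 and 39719 in dko and 17075, 1529 and 21499.9 in mdx extraocular muscle. Heart had 449.9, 736.1 and 334.9 in dko and 274.2, 1084 and 659 in mdx, and leg had 4565, 899.8 and 12292 in dko and 2061, 592.7 and 6995 in mdx. Here the mdx heart and leg arrays overlapped, and heart minus leg was -1.58 in mdx and -2.61 in dko, neither called with or without the block. Extraocular minus heart was 3.57 in dko and 3.48 in mdx, and both were called with the block alone (adjusted p 0.0154 and 0.0187). Both Atp2a1 probe sets had dko minus mdx differences between -0.58 and 0.79, with SEs of 1.16 to 1.25, so their intervals held changes of several fold in both directions.

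Atp2a2 (99570_s_at) encodes SERCA2, the pump of heart and slow fibres. It read 3398, 2759 and 4891 in dko and 1946, 3035.5 and 6225 in mdx extraocular muscle. Heart had 23837, 25526 and 39851 in dko and 26524, 22213 and 55913 in mdx. Leg had 4687, 5349.8 and 7638 in dko and 1576, 1169 and 2443 in mdx. Every heart array lay above every skeletal array, and the mdx leg arrays were the lowest group, below all dko leg arrays. Heart minus leg was 2.29 ± 0.42 (SE) in dko (adjusted p 0.0014) and 4.14 ± 0.42 in mdx (adjusted p 4.1e-06). Extraocular minus leg was -0.66 in dko, which was not called (adjusted p 0.72, and 0.064 with the block), and 0.94 in mdx, which was called with the block alone (adjusted p 0.32, and 0.0069 with the block). Without arrays 2 the blocked mdx value was 0.78 (adjusted p 0.164), without arrays 3 it was 0.77 (adjusted p 0.103) and without arrays 1 it was 1.28 (adjusted p 0.011).

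Casq1 (102426_at) encodes calsequestrin 1, the luminal calcium buffer of fast fibres. It read 9393, 28767.5 and 60084 in dko and 25991, 22598 and 45456 in mdx extraocular muscle. Heart gave 1521, 1621 and 1656 in dko and 3009, 2739 and 2771 in mdx. Leg gave 11672, 3855 and 26103 in dko and 9514, 7.9 and 39647 in mdx. The mdx leg array numbered 2 stood at the 0.464th percentile of its own array, against the 88th percentile or above on the other 5 leg arrays. Some fast fibre markers were low on the same array. Actn3, a Z-disc protein of fast fibres, read 10542, 520.2 and 39332 on mdx leg arrays 1, 2 and 3, and Myh4, a fast myosin heavy chain, read 10918, 461.3 and 48678. Tnni2, a fast troponin, read 7690.1, 5939 and 6432 there, and the part of the array or of the fibres sampled in the Casq1 value was not tested. That array set the leg values of Casq1: dko minus mdx in leg was 1.41 with it and -0.87 without it, and neither was called. Heart minus leg in mdx was -0.44 with it and -2.71 without it, and only the second was called (adjusted p 0.0479). In dko heart minus leg was -2.61 ± 1.33 (SE, adjusted p 0.29), although no heart array reached a leg array.

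In heart the spread of Casq1 was small, and the genotypes were 1599 ± 70.1 in dko and 2840 ± 148 in mdx (SD, n = 3 each), with no overlap. The log2 difference was -0.77 with an interval from -3.60 to 2.06, and the adjusted p was 1.00 without the block and 0.96 with it. That interval is set by a spread shared with the other tissues, in which the Casq1 arrays differed far more, but the difference was not called in a fit of the 6 heart arrays alone either (adjusted p 1.00). In heart 3.92% of all probe sets tested showed no overlap between genotypes.

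Casq2 (93053_at) encodes calsequestrin 2, the buffer of heart and slow fibres. It read 2251, 2469.5 and 1474 in dko and 1721, 1834 and 1306 in mdx extraocular muscle. In heart the values were 3044, 5489 and 3001 in dko and 2693, 3987.5 and 3514 in mdx, and in leg they were 2371, 3039.7 and 1696 in dko and 1768, 1670.1 and 1861.5 in mdx. Casq2 differed far less between tissues than Ryr2. Extraocular minus heart was -0.82 in dko and -0.99 in mdx, with an SE of 0.27, and without the block only the mdx value was called (adjusted p 0.036 in mdx and 0.0875 in dko, with both called with the block). The mdx call ended in 5 of the 6 fits that left out a single mdx extraocular or heart array, namely all but heart array 1, with adjusted p from 0.0645 to 0.141. Heart minus leg was 0.64 in dko and 0.87 in mdx and was called with the block alone (adjusted p 0.0327 and 0.006).

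Pvalb encodes parvalbumin, the cytosolic calcium buffer of fast fibres, and its 2 probe sets did not give the same pattern. Probe set 96720_f_at read 23871, 20524 and 16937 in dko and 18417, 24033 and 18298.5 in mdx extraocular muscle. Heart was near background, at 44.2, 254 and 23.6 in dko and 185.6, 181.1 and 92.2 in mdx, and leg read 31766, 29387 and 37909.8 in dko and 26156, 30457 and 45663 in mdx. The tissues formed 3 separate bands, with leg highest. Heart minus leg was -7.01 in dko and -6.72 in mdx, with an SE of 0.29 (adjusted p 4.3e-10 and 7.9e-10). All extraocular arrays lay below all leg arrays in both genotypes, but the differences of -0.69 in dko and -0.72 in mdx were not called (adjusted p 0.38 and 0.25, and 0.15 and 0.106 with the block). Between these tissues 15.4% of all probe sets did not overlap in dko and 17.1% in mdx.

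Probe set 96719_i_at of Pvalb read 1025, 7608 and 41086 in dko and 1677, 885.8 and 26486 in mdx extraocular muscle. In heart it read 7843, 6144 and 1498 in dko and 5609, 5290.4 and 1249 in mdx, all above the 40th percentile of their array, and in leg 1057, 900 and 1196 in dko and 1834.5, 1138 and 403.7 in mdx. Array 3 was the highest of its group in extraocular muscle, at 9.52 and 20.7 times the mean of arrays 1 and 2 in dko and mdx, and the lowest in heart, at 0.214 and 0.229 times. No tissue or genotype difference of this probe set was called with all arrays, while without all arrays numbered 3 heart minus leg in dko was 2.64 (adjusted p 0.0344). Across the 18 arrays the 2 Pvalb probe sets had a Pearson correlation of -0.25, against 0.91 for the 2 probe sets of Atp2a1. Which of the Pvalb probe sets measures parvalbumin RNA was not tested.

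**Figure D2:**
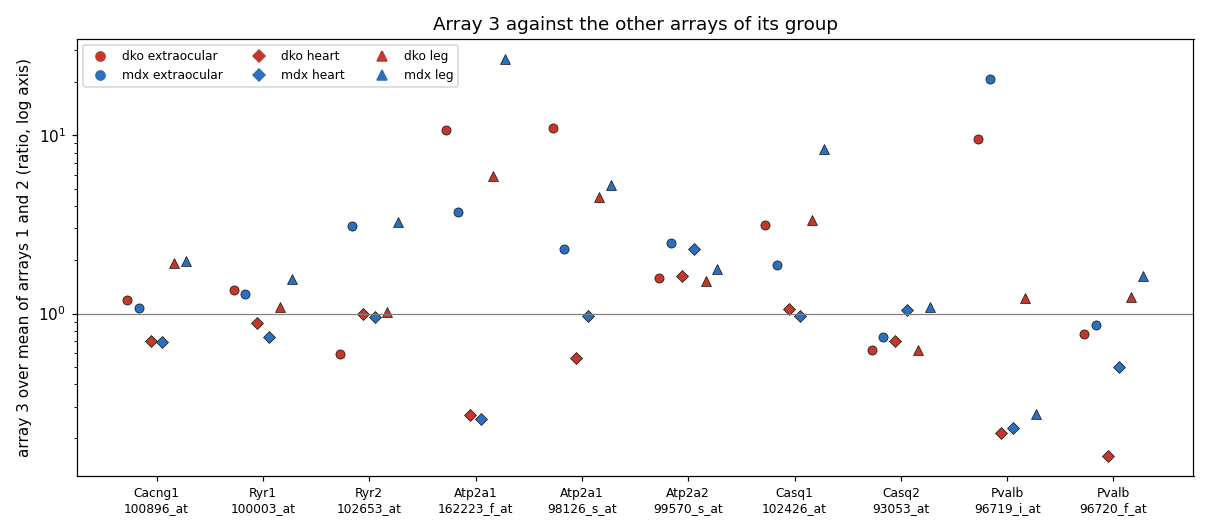
Intensity on array 3 over the mean of arrays 1 and 2 of the same group (ratio, log axis) for each probe set, with dko in red, mdx in blue and symbols for tissue; the line marks a ratio of 1. Atp2a1, Casq1 and Pvalb 96719_i_at reach ratios of 26.9, 8.33 and 20.7, while those of Ryr1 stay between 0.738 and 1.57.

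The comparison of dko with mdx asks whether the loss that separates these genotypes goes with a change in calcium handling. Without the block 0 of the 10 probe sets were called in extraocular muscle, heart or leg (limma), where 0.0225%, 0% and 0.0563% of all probe sets tested were called. At an unadjusted p under 0.05 there were 0, 0 and 1. With the block the count was 0, 0 and 1, against 0.158%, 0% and 1.2% of all probe sets, and the 1 was Atp2a2 in leg. In leg 8 of the 10 differences were above 0, with a median of 0.39. Groups that did not overlap were found for 1 member in each tissue: Cacng1 higher in extraocular muscle, Casq1 lower in heart and Atp2a2 higher in leg, where 9.95% of all probe sets did not overlap. In extraocular muscle that share was 5.65% and in heart 3.92%. The counts of 0 and the leg count without overlap lie near their backgrounds. The other counts are of 1 probe set among 10, too few to be set against a share. Each of the 3 genes is therefore described as 1 probe set.

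Atp2a2 averaged 5891 ± 1548 in dko leg and 1730 ± 651 in mdx leg (SD, n = 3 each), 3.41 times as high, and dko was higher at all 3 array numbers. The log2 difference was 1.70 ± 0.42 (SE, 95% interval 0.81 to 2.59). Its adjusted p was 0.30 without the block and 0.0141 with it. The blocked call was lost when all arrays of any 1 number were left out, with adjusted p of 0.111 without number 1, 0.202 without number 2 and 0.0953 without number 3. In fits added after the data were seen, which left out only the leg pair of a number, it was lost without pair 2 (1.53, adjusted p 0.112) and kept without pair 1 (1.81, adjusted p 0.0442) or pair 3 (1.76, adjusted p 0.0372). The size stayed between 1.48 and 1.96 when single leg arrays were left out. In extraocular muscle dko minus mdx was 0.096 (-0.79 to 0.98) and in heart -0.15 (-1.04 to 0.74), with overlapping arrays in both. The response in extraocular muscle minus that in leg was -1.61 and the response in heart minus that in leg was -1.85. Neither of these tests of the difference was called (adjusted p 1.00 in each, and 0.205 and 0.102 with the block), so a change restricted to leg was not shown. Among all probe sets 0% were called in either response without the block, and 0.0338% and 0.0675% with it. Array-wise, the level of Atp2a2 in dko leg (4687 to 7638) overlapped that in mdx extraocular muscle (1946 to 6225).

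**Figure D3:**
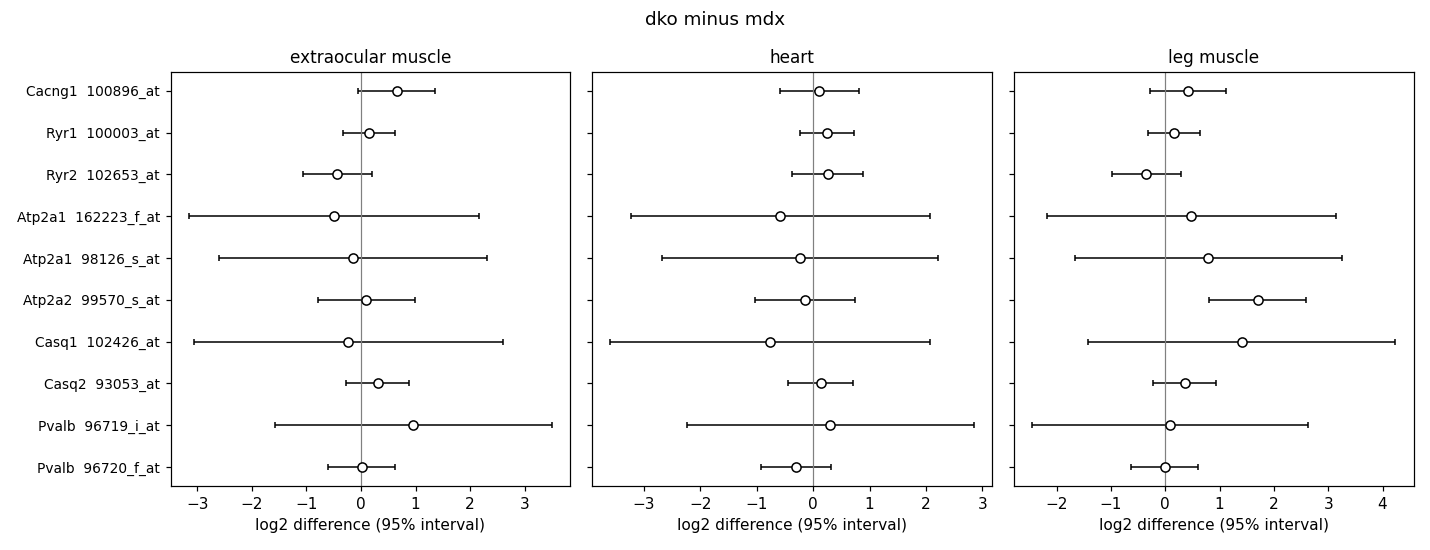
Log2 difference, dko minus mdx, of each probe set in extraocular muscle, heart and leg muscle, with its 95% interval from the fit without the block; open circles are differences with an adjusted p of 0.05 or more. Atp2a2 in leg, at 1.70, is the one interval clear of 0, and the widest intervals belong to Casq1, Atp2a1 and Pvalb 96719_i_at.

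Other markers moved in leg beside Atp2a2. The summed level of 7 slow fibre markers was 93078 to 136585 in dko leg and 25059 to 35835 in mdx leg, and 6 of the 7 were higher in dko without overlap, 1 of them called without the block and 6 with it. Myh7, the slow myosin heavy chain, differed by 4.40 on the log2 scale (adjusted p 0.00056), and Tnnc1, the slow and cardiac troponin C, by 2.48 (adjusted p 0.0535, and 0.0003 with the block). Tnnt2, a cardiac and immature-fibre troponin, was 2426, 5082 and 2805.5 in dko leg and 1459, 1029.6 and 1364 in mdx leg, with a log2 difference of 1.25 (adjusted p 0.44). None of the 8 fast fibre markers tested was called in leg, and Tnnt2 was the only one of 10 cardiac markers without overlap there. Among all probe sets tested in leg 0.0563% were called without the block and 1.2% with it, and 9.95% did not overlap. The fast fibre and cardiac counts lie near those shares and do not show that these lists were unchanged. The summed level of 13 macrophage markers was 66033 to 125973 in dko leg and 34875 to 67715 in mdx leg. That of 8 regenerating fibre markers was 27756 to 39138 in dko leg and 15725 to 23566 in mdx leg. Of these 8, 4 were higher in dko without overlap, 1 called without the block and 3 with it. In bulk RNA fewer cells of a type and less RNA per cell cannot be told apart. The part of fibre type, regenerating fibres, dissection or infiltrating cells in the Atp2a2 difference was not tested. Casq2, the other slow fibre member, differed by 0.36 in leg (interval -0.22 to 0.94), with overlapping arrays and an adjusted p of 1.00.

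In extraocular muscle the macrophage sum was 57007 to 60326 in dko and 25617 to 31315 in mdx, beside the Cacng1 values above, while the fast fibre sum was 122840.1 to 313988.5 in dko and 144508.5 to 265921 in mdx. In heart, where Casq1 was the member without overlap, the fast fibre sum was 5341 to 7058 in dko and 6535 to 9547 in mdx. Most of that heart sum came from 1 marker, Myl1, with means of 4140 in dko and 5941 in mdx. In each genotype 4 of the 9 fast fibre markers were near background on all heart arrays. Of the 8 tested in heart, 1 was lower in dko without overlap, which was Myl1, and 0 were called. Among all probe sets tested in heart 3.92% did not overlap and 0% were called. The heart sum therefore does not show a shift of the whole list. The sum of 6 skin and gland epithelium markers in extraocular muscle was 849.4 to 1529 in dko and 2014 to 3073 in mdx, without overlap. In dko 5 of the 6 were near background on all extraocular arrays, and in mdx 2 were, so much of that sum is background. Whether these markers bear on Cacng1 or Casq1 was not tested.

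Tissue was the larger source of difference among the members. Between heart and leg 6 of 10 probe sets were called in dko and 5 in mdx, where 10.7% and 9.97% of all probe sets were called. Atp2a2 and Ryr2 were higher in heart in both genotypes, and Cacng1, Ryr1 and Pvalb 96720_f_at were lower in both. Atp2a1 162223_f_at was called lower in dko, as given above. With the block 7 were called in each genotype, against 23.5% and 22.8% of all probe sets; Casq2 was added in both genotypes and Atp2a1 162223_f_at in mdx. Between extraocular muscle and leg 1 of 10 was called in each genotype (2.14% of all probe sets in dko and 4.02% in mdx), and this was Cacng1. With the block there were 1 in dko and 2 in mdx, where 7.58% and 12.4% of all probe sets were called. Heart and leg arrays did not overlap for 9 of 10 members in dko and 7 in mdx, where 24.2% and 23.3% of all probe sets did not. The members were chosen with such tissue patterns known. Cacng1, Ryr1, Ryr2, Atp2a1 162223_f_at and Pvalb 96720_f_at passed the filter only through tissue where they were high. The counts between tissues, here and below, are therefore a description.

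Between extraocular muscle and heart 6 of 10 were called in each genotype, against 7.66% of all probe sets in dko and 7.05% in mdx. Cacng1, Ryr1 and Pvalb 96720_f_at were higher in extraocular muscle and Ryr2 and Atp2a2 lower in both genotypes; the sixth was Atp2a1 162223_f_at (4.36, higher) in dko and Casq2 (lower) in mdx. Atp2a1 162223_f_at differed by 4.27 in mdx (adjusted p 0.0515), and the difference between these 2 values, 0.08, was not called. With the block 9 were called in dko and 8 in mdx, where 18.6% and 17.7% of all probe sets were. Arrays did not overlap for 9 members in each genotype, where 21.6% of all probe sets in dko and 20.6% in mdx did not. The comparisons with leg and with heart share arrays, and their values are given side by side only. For Cacng1, the one member called without the block between extraocular muscle and both other tissues, extraocular minus heart was 2.28 in dko and 1.73 in mdx.

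**Figure D4:**
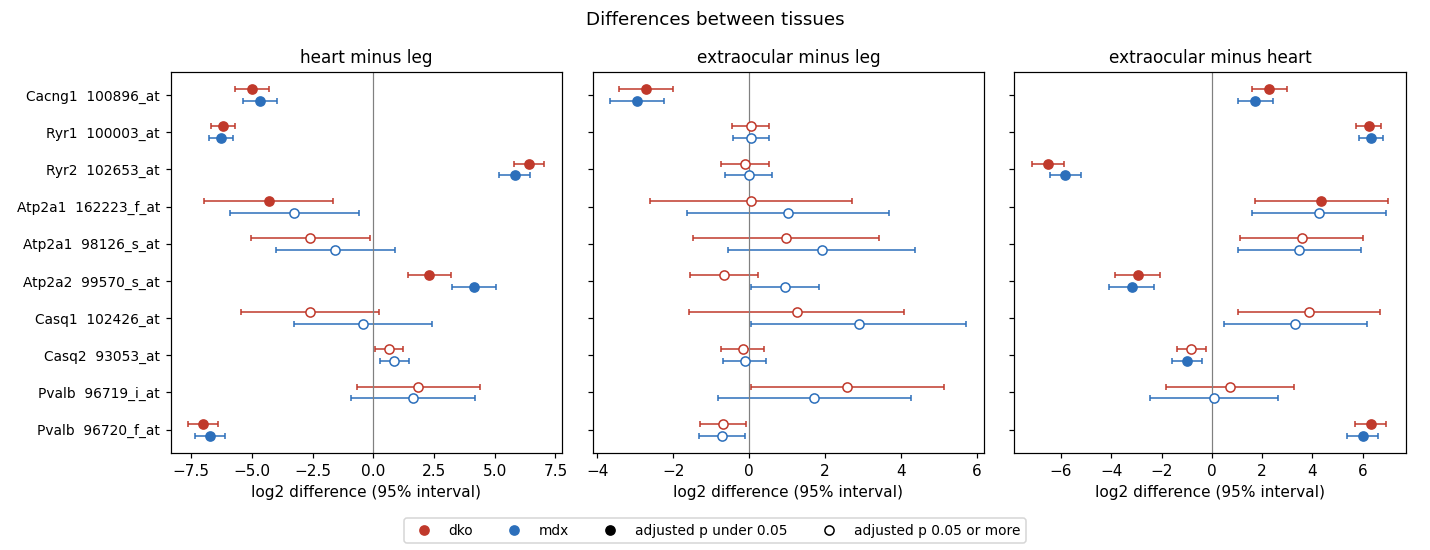
Log2 differences between tissues for each probe set, heart minus leg, extraocular minus leg and extraocular minus heart, in dko (red) and mdx (blue), with 95% intervals; filled circles have an adjusted p under 0.05. Cacng1 is filled in all 3 panels, and Ryr1, Ryr2 and Pvalb 96720_f_at are open between extraocular and leg muscle and filled in both comparisons with heart.

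The other genes of calcium handling were taken from a list of 64 in 5 roles, of which 38 had a probe set with a single symbol and 35 were tested, each by its brightest probe set. None was called between dko and mdx in any tissue, with or without the block. Of all probe sets tested, 0.0225%, 0% and 0.0563% were called in extraocular muscle, heart and leg without the block. With it 0.158%, 0% and 1.2% were called, so 0 of 35 lies near those shares. In leg 14 of 35 differences were above 0, with a median of -0.099. Between mdx heart and mdx leg 6 were higher and 9 lower in heart, and with the block 8 were higher and 12 lower, where 9.97% and 22.8% of all probe sets were called. The largest that were lower were Camk2b (-4.40), a calcium-dependent kinase, Cacna1s (-4.31), the pore of the skeletal channel that Cacng1 belongs to, and Sypl2 (-4.19), the triad protein mitsugumin 29. The largest that were higher were Slc8a1 (3.68), the sodium-calcium exchanger, Cacna1c (2.78), the pore of the cardiac channel, and Cacnb2 (2.54), a channel beta subunit. By role, 3 of 8 surface membrane genes were higher and 2 lower, and 0 of 4 pumps and buffers were called without the block. With the block Calu (0.63), a calcium-binding protein of the reticulum, was called higher (adjusted p 0.0165) and Sln (-0.58), a small inhibitor of the SERCA pumps, was called lower (adjusted p 0.0415).

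Cacna1s averaged 478 in mdx heart and 12972 in mdx leg (n = 3 each), lower in heart as Cacng1 and Ryr1 were. Between mdx extraocular muscle and mdx heart 7.05% of all probe sets were called without the block and 17.7% with it. Of the 35, 6 were higher and 5 lower there, and with the block 6 and 8. Cacna1s (4.15), Stim1 (4.01), the sensor of store-operated calcium entry, and Camk2b (3.84) led those that were higher, and Slc8a1 (-3.75), Cacna1c (-2.94) and Cacnb2 (-2.33) those that were lower. Between mdx extraocular and leg muscle, where 4.02% of all probe sets were called, 1 was higher, S100a1 (0.92), a calcium sensor. The 2 that were lower were Tmem38b (-1.24), a potassium channel of the reticulum, and Ppp3ca (-0.99), the catalytic subunit of calcineurin. With the block 4 were higher and 5 lower, where 12.4% of all probe sets were called. Cacna1s differed there by -0.16 (adjusted p 0.95), while Cacng1, from the same channel, differed by -2.96; the difference between the 2 was not tested.

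**Figure D5:**
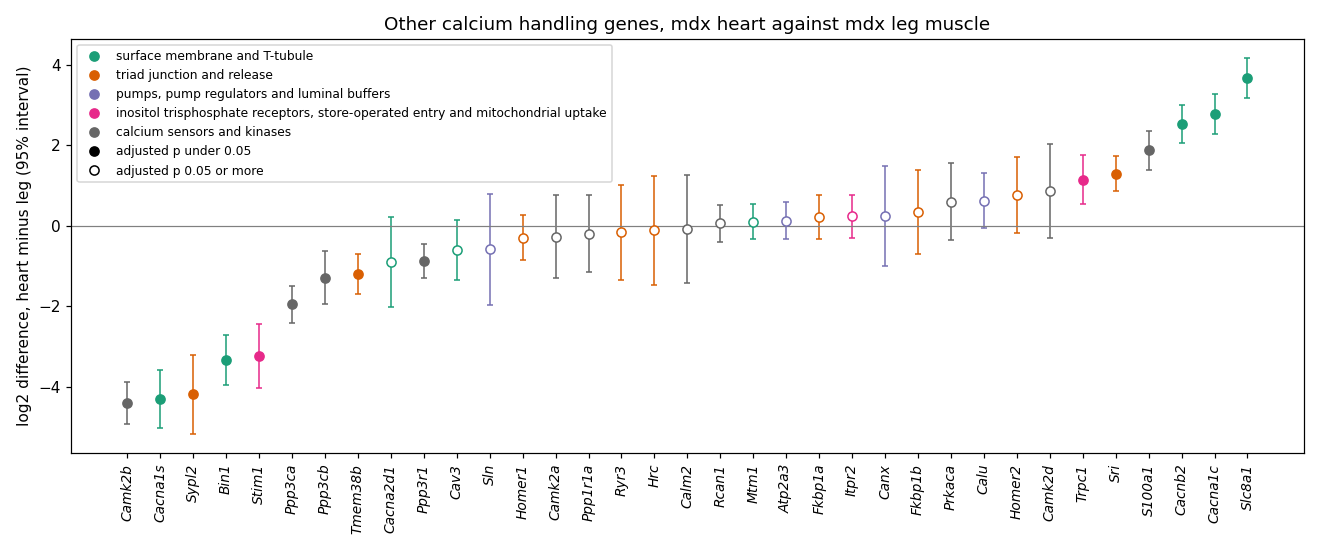
Log2 difference, mdx heart minus mdx leg, of the 35 other calcium handling genes tested, in order of size, coloured by role, with 95% intervals; filled circles have an adjusted p under 0.05. Camk2b, Cacna1s and Sypl2 lie lowest, below -4, and Slc8a1 highest, at 3.68.

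For each member the 3 genes with the most similar profile over the 18 arrays were found by Pearson correlation of log2 values, as a description; the points share tissues and array numbers. Ryr1 was closest to Tnnt3 (r 0.995), Tnni2 (0.992) and Rtn4 (0.991), the first 2 of them fast troponins. Ryr2 was closest to Myl7 (0.988), an atrial myosin light chain, Slc8a1 (0.986) and Cacna1c (0.985). Pvalb 96720_f_at was closest to Bin1 (0.989), a T-tubule protein, Cd24a (0.988) and Cacna1s (0.987), and Cacng1 to Phlda3 (0.978), Ankrd2 (0.967) and Rasa4 (0.964). Atp2a2 was closest to Tnnt2 (0.961), Clic4 (0.953) and Hsd17b7 (0.952). Atp2a1 and Casq1 shared 2 of their 3, Fhl1 (0.929 and 0.885) and Tnnc2 (0.926 and 0.902). The other was Sfrp4 (0.901) for Atp2a1 and Pgk1 (0.846) for Casq1. Casq2 was closest to Ezr (0.925), Rnf13 (0.907) and Fgl2 (0.881).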

How the data were processed

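Intensity values were used as the authors deposited them in the value table of the series, 1 column for each of the 18 arrays and 0 columns of other series. Read from the values, each array had been scaled to a mean, with 2% trimmed from either tail, of 1500.69 to 1501.15. Which program made the values was not given in the sources used, and per the labels RNA was handled by the standard Affymetrix protocol. Of 12488 probe sets, 66 controls were left out, and 10833 of the rest had a single gene symbol.

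From the deposited intensities log2(intensity + 166.7) was computed, 166.7 being the median over arrays of the 25th percentile. Probe sets above the 40th percentile in at least 3 arrays were tested (8888). Means of the 6 groups were fitted together with limma 3.58.1 in R 4.3.3 (12 residual and 3.52 prior degrees of freedom), two-sided, with Benjamini-Hochberg adjustment within each of 13 contrasts. On simulated data for leg at this size 33% of changes of 1 log2 unit and 78% of those of 2 units were recovered, with 4 false calls beside 200 changed probe sets. The simulated arrays had independent noise and lacked the deviations that real arrays of the same number share, so these rates need not hold for the real arrays.

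The labels number the arrays of each group without saying what a number marks. Deviations from group means correlated at 0.404 to 0.751 across probe sets in all 9 pairs of the same number and tissue, so the replicate number was used as a block in a second fit: within tissue for genotype (6 residual degrees of freedom), and common to all arrays for tissues (10).

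All probe sets of the members are reported. In the wider list the 3 largest called differences in each direction between mdx tissues are named, and for each member the 3 most correlated genes. The marker lists covered cardiac muscle, fast, slow and regenerating fibres, extraocular muscle, smooth muscle, macrophage, nerve, endothelium, adipocyte and epithelium. The members, lists and tests were chosen with earlier results of these data known. Alternatives were another offset (32), no filter, quantile normalization, scaling to the 75th percentile, the block, leaving out arrays, and a fit per tissue. Arrays give no counts, so their number limits the precision. Promoters and motifs were read from RefSeq tables with Python 3.11.15, and figures drawn with matplotlib 3.10.9.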

Additional observations from a re-analysis of the deposited data

How the results depend on the processing

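Of 2370 values of the members under the alternatives, 2310 kept their direction where called and their side of the threshold, 22 lost a call, 38 gained one and 0 turned a called direction. For genotype 0 calls were lost, since there were none, and 3 were gained, all of Atp2a2 in leg. Among the 2370 were 183 values that changed sign in differences not called with all arrays and no block. One of these, heart minus leg of Casq1 in mdx, was called only where number 2 was left out. The replicate block moved the count of members called between dko and mdx in leg to 1, against 0 without it, and between extraocular and leg muscle in mdx to 2, against 1 without it; it moved no other count by over 1.5 times. Leaving out replicates gave 0 to 1 and 1 to 2 for these counts. Over all alternatives tried, 5 to 9 members were called between extraocular muscle and heart in each genotype, and between heart and leg 5 to 8 in dko and 5 to 7 in mdx. The leg fits without 1 array pair were added after the data were seen. The leg difference of Atp2a2 kept its sign in all of these fits, while its adjusted p ran from 0.0141 to 0.80. Calls of Atp2a1, Casq1 and Casq2 between tissues depend on single arrays. The 3 arrays of each group limit what can be seen of Atp2a1, Casq1 and Pvalb 96719_i_at, and for probe sets near background a ratio is a floor set by the offset.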

Other observations

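The remaining marker lists moved with genotype as follows, none of them a member. Among 8 markers of regenerating fibres, Myh3, the embryonic myosin heavy chain, was higher in dko leg by 2.04 on the log2 scale (adjusted p 0.023), and the summed level was 27756 to 39138 in dko leg and 15725 to 23566 in mdx leg. Smooth muscle (6 markers tested), endothelium (6), epithelium (4) and nerve (2) had 0 calls in all 3 tissues with and without the block (limma). Of all probe sets tested, 0.0225%, 0% and 0.0563% were called in extraocular muscle, heart and leg without the block. With it 0.158%, 0% and 1.2% were called, so 0 calls in lists this short lie near those shares. Of the epithelium markers, Krt19 (-1.33) and Sfn (-1.34) were lower in dko extraocular muscle without overlap, and the median of the 4 was -0.90. Krt19 and Sfn were near background on all dko extraocular arrays, so their sizes rest on the added constant. Of 4 adipocyte markers 1, Ucp1, was lower in dko extraocular muscle with the block (-1.48, adjusted p 0.032, against 1.00 without it). In the macrophage list 11 of 13 were higher in dko extraocular muscle without overlap, 1 called without the block and 3 with it. There 5.65% of all probe sets did not overlap, in either direction.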
